A study of Mus musculus with 4 samples.

Results

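Among myeloid cells of the uninjured mouse heart, 172 of 10238 cells carried a transcript programme of cell division. They were chosen by measured transcripts: a cycling cell had at least 1 unique molecular identifier (UMI, 1 counted mRNA molecule) of 4 or more of Mki67, Top2a, Birc5, Ube2c, Cenpf, Prc1 and Pclaf, among cells with 500 to 40000 UMIs and over 200 genes. They made up 1.68% of the library (exact 95% binomial interval 1.44 to 1.95%), within 41533 cells of the whole series. The study kept fewer baseline cells than its stated filter leaves here, by a step not given in the sources used, so the share may differ over its cells. The comparison group was the 8763 cells of the same library with 0 UMIs of all 7 genes. The remaining 1303 cells, with 1 to 3 of the 7, belonged to neither group.

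The cells came from hearts of CSF1R-EGFP+ mice aged 12 to 16 weeks, in which the Csf1r promoter drives EGFP, and were sorted as EGFP+ after removal of Ly6G+ cells. The baseline library pooled 3 hearts without surgery. Each of 3 infarct libraries held 1 heart taken 7 days after ligation of the left coronary artery, with the non-infarcted zone cut away, in mice of the same genotype and age. The sort selects on a reporter, so it holds any cell with an active transgene, and the labels give its cell type as macrophages. Baseline is 1 library of pooled animals. No comparison within it has a replicate, no test was made, and the intervals given cover counting error only.

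A dividing cell passes through DNA replication, mitosis and cytokinesis, each driven by genes that are transcribed in waves under the E2F factors, the DREAM complex and the MYB-MuvB and FOXM1 factors. Among the 7 genes, Mki67 encodes a protein that coats mitotic chromosomes, Top2a a topoisomerase that untangles sister chromatids, Birc5 (survivin) a subunit of the chromosomal passenger complex, Ube2c the ubiquitin-conjugating enzyme of the anaphase-promoting complex, Cenpf a kinetochore protein, Prc1 an organiser of the midzone spindle in cytokinesis, and Pclaf a partner of the replication clamp PCNA. Macrophages of the adult heart include long-lived residents marked by Lyve1, a hyaluronan receptor, and Cd163, a scavenger receptor for haemoglobin, which maintain themselves largely by local division. Other cardiac macrophages and dendritic cells descend from monocytes that express Ccr2, a chemokine receptor, and Ly6c2, a surface antigen of classical monocytes. H2-Aa, a chain of the MHC class II complex that presents antigen, is carried by subsets of both lineages.

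The promoters of the 7 genes were read for the letters of the CHR element (TTTGAA or TTTAAA), the CCAAT box and the E2F site (TTTGGCGC, TTTCCCGC, TTTGCCGC or TTTCGCGC), on both strands and over the 250 bases before each start. All 7 genes matched RefSeq promoters of build GRCm38.p6. A CHR was found in 6 of the 7 genes, a CCAAT box in 6, both in 5 and the E2F letters in 0. Over all 27025 genes with a promoter, 28.1% had a CHR, 37.5% a CCAAT box, 11.2% both and 2.16% the E2F letters. Birc5 held a CHR and no CCAAT box, and Pclaf held the reverse. Matches are letters in a window and not measured sites. The last 150 bases before the start are shown, 5′ to 3′, for the 4 genes that carry both kinds of letters within that stretch, with CHR and CCAAT matches of either strand in capitals.
Mki67, chr7:135716380-135716529, minus strand: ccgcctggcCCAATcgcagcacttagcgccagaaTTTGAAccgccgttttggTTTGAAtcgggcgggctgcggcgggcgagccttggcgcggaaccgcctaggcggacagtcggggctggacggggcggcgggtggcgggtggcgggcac
Top2a, chr11:99024190-99024339, minus strand: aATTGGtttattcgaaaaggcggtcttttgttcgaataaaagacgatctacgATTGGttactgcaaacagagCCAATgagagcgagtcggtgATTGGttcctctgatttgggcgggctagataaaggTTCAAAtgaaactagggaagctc
Ube2c, chr2:164769779-164769928, plus strand: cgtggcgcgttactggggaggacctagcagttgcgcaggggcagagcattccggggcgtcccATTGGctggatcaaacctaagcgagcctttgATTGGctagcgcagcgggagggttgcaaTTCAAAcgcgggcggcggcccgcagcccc
Prc1, chr7:80294326-80294475, plus strand: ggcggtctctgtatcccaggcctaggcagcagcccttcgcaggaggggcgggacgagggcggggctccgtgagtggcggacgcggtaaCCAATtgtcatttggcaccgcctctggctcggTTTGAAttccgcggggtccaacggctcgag
In Top2a the CHR lay 18 to 23 bases and a CCAAT box 54 to 58 bases before the start. In Ube2c these were 24 to 29 and 53 to 57 bases, and in Prc1 25 to 30 and 58 to 62 bases. In all 3 genes a CHR and a CCAAT match thus stood at nearly the same places. Both lay on the minus strand in Top2a and Ube2c and on the plus strand in Prc1. Top2a and Ube2c each held 6 CCAAT matches in the 250 bases, and the spacing was not compared with that in other promoters. Prc1 has 2 starts in the tables, and the stretch shown lies before the downstream start. In Mki67 the 2 CHR matches lay farther out, the nearer at 93 to 98 bases. Of 35 mitosis genes with a promoter in the tables, 14 held a CHR and 25 a CCAAT box. Of 23 DNA replication genes, 4 held a CHR, 17 a CCAAT box and 8 the E2F letters.

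The number of the 7 genes per cell had a second rise at its top. It fell from 8763 cells with none to 1118 with 1, 141 with 2, 44 with 3, 42 with 4 and 24 with 5, and then rose to 29 cells with 6 and 77 with all 7. Mki67 was found in 171 of the 172 cycling cells, at a median of 19 UMIs and a maximum of 104. Top2a was found in 158 (median 13 UMIs), Prc1 in 149 (3), Birc5 in 145 (4), Pclaf in 137 (3), Cenpf in 129 (3) and Ube2c in 112 (2). These values chose the cells and are given as a description. Just outside the threshold, the 44 cells with 3 of the genes carried a mean of 3.14 Mki67 and 1.61 Top2a UMIs, and 6 of them had Ube2c. Just inside, the 42 cells with 4 carried 7.14 and 3.43, and again 6 had Ube2c.

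**Figure D1:**
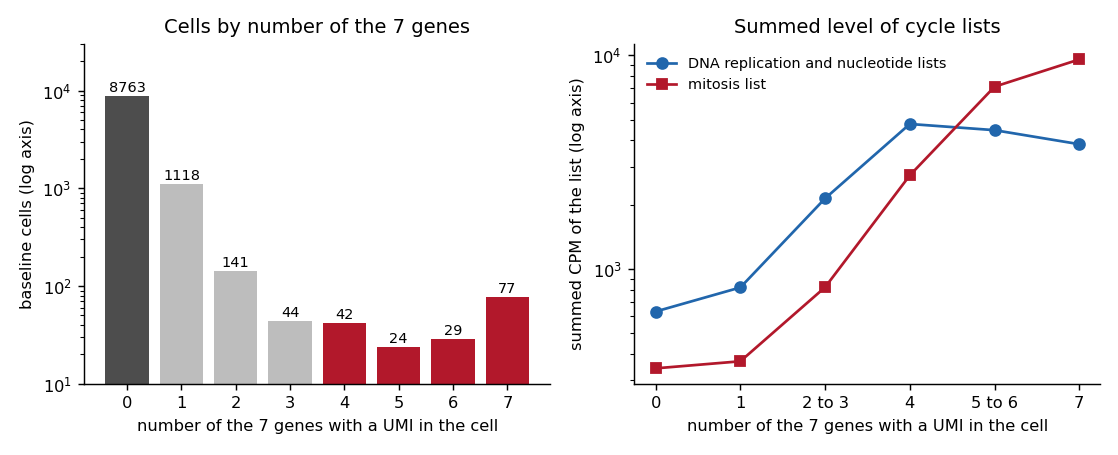
Left, number of baseline cells (log axis) by how many of the 7 genes had a UMI, with the 172 cycling cells in red and the 8763 cells with none in dark grey. Right, summed CPM (log axis) of the replication and nucleotide lists and of the mitosis list in the same cells: replication levels reach 4766 CPM at 4 genes, while mitosis levels go on rising to 9559 CPM at 7.

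Cycling cells were deeper than the rest. They had a median of 14164 UMIs (1178 to 29995) and 3904.5 genes, against 6131 UMIs and 2222 genes in cells without the 7 genes, 2.31 and 1.76 times as many. A rule on detected genes favours deep cells, and cells before division also hold more RNA. These were not told apart. Levels below are therefore CPM (counts per 1000000 UMIs of non-mitochondrial genes, from counts summed over cells), and shares of cells are given after each cell with at least 2000 UMIs was thinned to 2000, which left 168 cycling cells and 7607 cells without the 7 genes. Mitochondrial shares were alike, at medians of 4.07% and 4.26%. Between the baseline and any infarct library, 3 cycling cells shared a barcode (1.74%, against 0.924% of the cells without the 7 genes), and no barcode was a cycling cell in both. Among the 839 cells of the highest doublet scores were 21 cycling cells (12.2%), against 7.6% of the cells without the 7 genes. The automatic threshold of the doublet caller marked 1 cycling cell. Of the cycling cells, 125 carried Y-linked transcripts without Xist and 0 the reverse, so that the sexes do not tell the pooled hearts apart.

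Myeloid genes were found in most cycling cells, although the share that free RNA gives for them was not measured. C1qa was found in 79.2% of thinned cycling cells, Tyrobp in 86.3%, Ptprc (CD45) in 73.2% and Csf1r in 66.1%. All 7 T and NK cell markers (Cd3e, Cd3d, Trac, Nkg7, Klrb1c, Gzma and Trbc2) were at 0 UMIs in the 172 cells, which allows up to 3 UMIs of each over the group, and the B cell genes Cd79a and Ms4a1 were also at 0. The B cell list as a whole summed to 259 CPM in cycling cells and 362 CPM in the others, through Ighm (240 against 291 CPM, in 79.1% of cycling cells) and Cd79b (17.3 against 31.1 CPM). The granulocyte list summed to 15.6 CPM in cycling cells and 272 CPM in the others, the endothelial list to 137 and 231 CPM, the fibroblast list to 208 and 148 CPM, the mural list to 12.1 and 12.3 CPM, the cardiomyocyte list to 36.0 and 50.1 CPM and the erythroid list to 2.17 and 110 CPM. The fibroblast sum rested on Gsn, an actin-severing protein that macrophages also make, at 195 against 123 CPM, while Dcn stood at 9.53 CPM, from 22 UMIs in 7 cycling cells, and Col1a1, Col1a2, Col3a1, Pdgfra and Tcf21 stayed under 2 CPM.

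Of 6335 genes whose mean over both groups reached 20 CPM, 471 (7.43%) were at least 2-fold higher in cycling cells and 190 (3.00%) at least 2-fold lower, around a median log2 ratio of 0.00. The rule used this same contrast, so list counts are read as a description and not against that background. A low gene can also enter the 6335 through the cycling cells alone. For that reason each list's median is given over all its measured genes.

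The replication machinery was carried broadly. Of 30 DNA replication genes, all 30 were higher in cycling cells, 26 passed the filter and these 26 were at least 2-fold higher, with a median log2 ratio of 3.46 over the 30. The helicase subunits Mcm2 to Mcm7, which unwind DNA at the fork, ranged from a log2 ratio of 2.57 (Mcm3, 175 against 29.4 CPM) to 3.62 (Mcm5). The sliding clamp Pcna stood at 185 against 47.4 CPM, a log2 ratio of 1.97. Larger ratios belonged to genes nearly silent outside the cycle. Mcm10, which activates the helicase, stood at 66.3 against 0.956 CPM (log2 ratio 6.12), Clspn, a checkpoint adaptor at the fork, at 159 against 2.08 CPM (6.25), and Uhrf1, which passes DNA methylation to new strands, at 125 against 2.46 CPM (5.66). Nucleotide supply followed, with all 11 genes higher and a median of 3.58. Rrm2, the regulated subunit of ribonucleotide reductase, had a log2 ratio of 7.47 and the thymidine kinase Tk1 one of 7.01, whereas Nme1 had one of 0.48.

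Mitosis genes differed most. Of 40, 39 were higher in cycling cells and 38 of the 39 that passed the filter were at least 2-fold higher, with a median log2 ratio of 6.04. Ccnb2, a mitotic cyclin, stood at 214 against 0.184 CPM (log2 ratio 10.18), Hmmr, a spindle protein, at 277 against 0.405 CPM (9.42), Kif11, the motor that separates spindle poles, at 313 against 0.736 CPM (8.73), and Plk1, the polo-like kinase, at 96.2 against 0.294 CPM (8.35). The condensin subunits Smc2 and Smc4 were already measurable outside the cycle, at 24.7 and 74.4 CPM, and stood at 401 and 665 CPM in cycling cells. Pttg1 (securin), the inhibitor of separase, was the exception at 30.3 against 39.9 CPM, and the 3 infarct libraries gave it log2 ratios of -0.37, -0.34 and -0.39. All 22 genes of the chromatin and tubulin list were at least 2-fold higher, among them the linker histone Hist1h1b (2345 against 31.6 CPM), Hmgb2 (1793 against 239 CPM) and Stmn1, a microtubule destabiliser (1514 against 24.3 CPM). Outside the cycle lists and above a mean of 50 CPM, the 10 highest ratios were those of Hist1h3c, Aspm, Kif4, Esco2, Spc24, Cep55, Ncapg, Hist1h2ab, Kif15 and Sgo2a, from 9.29 for Hist1h3c downward, all of them histone, spindle or chromosome genes.

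The cyclins divided by type. The mitotic partner Ccna2 stood at 212 against 0.331 CPM (log2 ratio 9.32) and Cks1b, which binds cyclin-dependent kinases, at 247 against 5.74 CPM (5.43). The D-type cyclins, which couple growth signals to the start of the cycle, were near 0: Ccnd1 had 227 against 191 CPM (log2 ratio 0.26), Ccnd2 64.6 against 83.8 CPM (-0.38) and Ccnd3 79.3 against 94.9 CPM (-0.26). Cdk4 was higher (113 against 44.6 CPM), and Cdk6 was not (92.3 against 105 CPM). Of the cycle transcription factors, Foxm1 had a log2 ratio of 7.14, E2f8 of 4.83, E2f1 of 1.82 and E2f2 of 1.48.

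Inhibitors of the cycle were not uniformly low. The CDK inhibitor Cdkn1a was carried at 492 CPM in cycling cells and 273 CPM in the others (log2 ratio 0.85, interval 0.76 to 0.94), and in 52.4% against 27.3% of thinned cells. Cdkn2c and Cdkn2d, inhibitors of Cdk4 and Cdk6, had log2 ratios of 2.70 and 1.89, and Rbl1, a pocket protein of the DREAM complex, one of 2.27. Cdkn1b (137 against 164 CPM) and the retinoblastoma gene Rb1 (96.2 against 108 CPM) were within 2-fold, as were the antiproliferative genes Btg1 (350 against 591 CPM) and Btg2 (1079 against 1407 CPM).

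Single cells held these programmes in different amounts. A cycling cell had UMIs of a median of 17 of the 30 replication and 28 of the 40 mitosis genes, against 2 and 1 in cells without the 7 genes. With 10 genes of a list as the mark, 109 cycling cells (63.4%) carried both programmes, 49 (28.5%) mitosis genes only, 9 (5.23%) replication genes only and 5 neither. The 49 cells with mitosis genes only had 187 CPM of Ccnb1 and 281 CPM of Cdc20, an activator of the anaphase-promoting complex, against 62.7 and 61.5 CPM in the 109 with both. Hist1h1b ran the other way, at 549 and 2915 CPM. The rule leaned to mitosis: outside it, 92 cells with 1 or 2 of the 7 genes, and 81 cells with none, had 10 or more replication genes and fewer than 10 mitosis genes. The same lean appeared along the number of the 7 genes, with Ccnd1 at 483 CPM in cells with 4 and 126 CPM in cells with 7.

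Most cycling cells carried H2-Aa, and Lyve1 and Ly6c2 levels were lower than in the rest of the library. Before thinning, as many cycling cells had Ccr2 as Cd163 (94 each of 172). At 2000 UMIs a cell these shares were 42.9% and 29.8%. H2-Aa stood at 4166 CPM (4083 to 4250) in cycling cells and 4451 CPM (4433 to 4468) in cells without the 7 genes, a log2 ratio of -0.10. Ccr2 stood at 501 CPM (472 to 531) and 604 CPM (598 to 611), a log2 ratio of -0.27 that turned to 0.09 in cells thinned to 2000 UMIs. The 2 genes that separate residents from the rest were lower. Cd163 had 251 CPM (231 to 272) against 442 CPM (436 to 447), a log2 ratio of -0.82, and Lyve1 115 CPM (101 to 130) against 438 CPM (432 to 443), 3.81-fold lower (log2 ratio -1.93, interval -2.11 to -1.76). Ly6c2 had 33.4 CPM (26.3 to 41.7) against 146 CPM (142 to 149), 4.36-fold lower (log2 ratio -2.12, interval -2.47 to -1.80).

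Shares of thinned cells gave the same order for Lyve1 and Ly6c2. For Cd163 the interval held the share of the others, and no direction is read from its share of cells with a UMI. At 2000 UMIs a cell, Cd163 was found in 29.8% of cycling cells (23.0 to 37.3%) and 32.4% of the others, Lyve1 in 12.5% (7.91 to 18.5%) and 22.4%, and Ly6c2 in 2.38% (0.652 to 5.98%) and 9.29%. Ccr2 was found in 42.9% of cycling cells (35.3 to 50.7%) and 31.6% of the others (30.6 to 32.7%), and H2-Aa in 72.6% (65.2 to 79.2%) and 68.3%. For these 2 genes the share was higher while the CPM was lower, and no direction is read from the shares. In thinned cells, 29 of 168 cycling cells (17.3%) and 16.3% of the others had 3 or more Ccr2 UMIs. For H2-Aa these shares were 60.1% and 55.8%, for Cd163 6.55% and 12.1%, and for Lyve1 2.38% and 10.2%. Before thinning, 44 of the 172 cycling cells had Lyve1, 94 Cd163, 94 Ccr2, 12 Ly6c2 and 148 H2-Aa. The unthinned shares of the cells without the 7 genes were 29.2%, 43.6%, 37.2%, 12.4% and 76.2% in the same order.

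**Figure D2:**
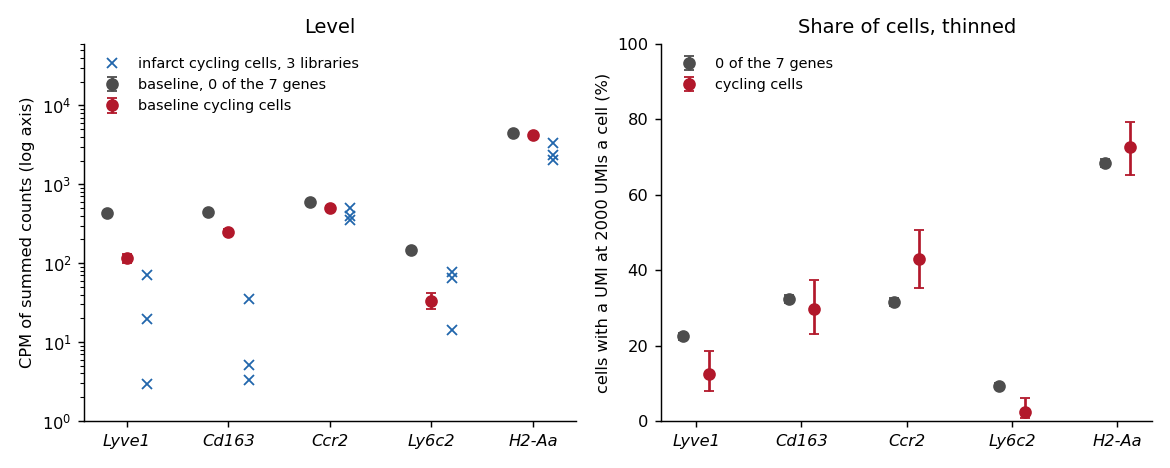
Left, CPM of summed counts (log axis) of the 5 identity genes in baseline cells without the 7 genes, in baseline cycling cells (exact Poisson 95% intervals) and in cycling cells of each infarct library (crosses). Right, share of baseline cells with a UMI at 2000 UMIs a cell, with exact 95% binomial intervals: Lyve1 and Ly6c2 are lower in cycling cells (12.5% and 2.38%) than in cells without the 7 genes (22.4% and 9.29%), and H2-Aa is found in most cells of both.

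Free RNA in the droplets sets a floor for such shares. In B cells gated by their markers and the absence of C1qa (53 thinned cells, median 3834 UMIs), Lyve1 was in 0, which allows a share of up to 5.66%, Cd163 in 1.89% and Ly6c2 in 5.66%. In endothelial cells gated the same way (51 cells, median 3633 UMIs), Cd163 was in 9.8%, Ccr2 in 13.7%, Ly6c2 in 3.92% and H2-Aa in 23.5%. The thinned groups compared above had medians of 14322.5 and 6714 UMIs. The share of cycling cells with Ly6c2 was at or below both gates, so no expression is read from that share. The other 4 genes stood above theirs.

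Transcripts were uneven among cycling cells. The 18 cells richest in each gene held 82.6% of the Lyve1 UMIs, 53% of Cd163, 40% of Ccr2 and 34.8% of H2-Aa, and all 77 Ly6c2 UMIs lay in 12 cells, 5 of them with 3 or more and 1 with 30. In pairs of genes, 34.5% of thinned cycling cells (27.4 to 42.2%) had Ccr2 and neither Lyve1 nor Cd163, against 26.1% of the others. The reverse pattern, Lyve1 or Cd163 without Ccr2, was found in 25.6% (19.2 to 32.9%) and 34.7%. Cells with H2-Aa and Ccr2 but neither resident gene made up 32.1% (25.2 to 39.8%) of cycling cells and 17.8% (17.0 to 18.7%) of the others. Lyve1 and Cd163 together were found in 8.33% and 14.6%, and Ly6c2 without H2-Aa in 1.79% and 5.97%.

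Lyve1 was lowest in cells with 5 or more of the 7 genes. It stood at 438 CPM in cells with none of the 7, 338 CPM with 1, 415 CPM with 2 or 3, 330 CPM with 4, 105 CPM with 5 or 6 and 53.5 CPM with all 7. Cd163 moved less, from 442 CPM with none to 272, 288 and 227 CPM with 4, 5 or 6, and 7. Ccr2 had no single direction, at 604 CPM with none, 706 CPM with 1 and 824 CPM with 2 or 3. It then stood at 254, 431 and 611 CPM with 4, 5 or 6, and 7. H2-Aa lay between 3495 and 4620 CPM in cells with 4 or more. C1qa stood at 3788 CPM with none, 4134 CPM with 4, 3500 CPM with 5 or 6 and 2109 CPM with 7. By programme, Lyve1 was at 93.2 CPM in the 109 cells with both programmes, 129 CPM in the 49 with mitosis genes only and 446 CPM in the 9 with replication genes only, of which 55.6% had a Lyve1 UMI after thinning. The last share rests on 9 cells.

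To place the cycling cells, the cells without the 7 genes were clustered with the cycle and identity genes left out, and each cycling cell took the cluster most frequent among its 25 nearest such cells. The clustering gave 17 clusters, of which 10 were named from markers. By the same vote 95.6% of the cells without the 7 genes returned to their own cluster. Among cycling cells, 160 of 172 had a majority of neighbours in 1 cluster, with a median of 88% of neighbours. Since the cluster genes place the cells, they are not reported as findings.

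Cycling cells lay mainly in 4 clusters. The first, led by Ccl4, Nes and Ccl3 and named by no marker list, held 58 (33.7% of cycling cells, 26.7 to 41.3%). A second unnamed cluster, led by Cd209a, Retnla and Ccl17, held 44 (25.6%, 19.2 to 32.8%), although it held 5.84% of the cells without the 7 genes. A resident-like cluster led by Pla2g2d, Ccl12 and Cd163 held 27 (15.7%), and an unnamed cluster led by the cardiomyocyte genes Tnnt2, Myl2 and Mb held 17 (9.88%), all 17 with C1qa and Cx3cr1. A second resident-like cluster, led by Ednrb, Lyve1 and Ccl8, held 8 (4.65%), against 11% of the cells without the 7 genes. Only 4 lay in the monocyte-like cluster (2.33% against 10.9%) and 3 in 2 non-classical monocyte-like clusters. The interferon-response-like cluster held 2, the endothelial-like cluster 1, and the reparative-like, B-cell-like and granulocyte-like clusters 0. The last 8 cycling cells lay in unnamed clusters led by Gm26917 (5) and Hbb-bs (3).

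As a share of each cluster's own cells, cycling cells were most frequent in the Cd209a cluster, at 6.31% (4.62 to 8.38%) of 697 cells. The Nes cluster had 2.93% (2.24 to 3.78%) of 1977, the Tnnt2 cluster 2.66% (1.56 to 4.23%) of 639 and the Pla2g2d cluster 1.78% (1.17 to 2.58%) of 1519. The Lyve1 cluster had 0.726% (0.314 to 1.43%) of 1102 and the monocyte-like cluster 0.361% (0.0984 to 0.921%) of 1109. In the larger non-classical cluster it was 0.0957% of 1045 cells. The reparative-like cluster, led by Spp1, Gpnmb and Fabp5, had 0 of 243 cells in this clustering, which allows up to 1.23%, and held cycling cells in other clusterings. When each cell with at least 4000 UMIs was thinned to 4000 before the rule, the first 6 of these clusters had 4.89%, 2.35%, 2.74%, 1.24%, 0.468% and 0.367% in the same order. The thinned interval of the Cd209a cluster (3.39 to 6.8%) lay above that of the Nes cluster (1.69 to 3.17%) and overlapped that of the Tnnt2 cluster (1.47 to 4.63%). The intervals of the Nes, Tnnt2 and Pla2g2d clusters overlapped, as did those of the Lyve1 and monocyte-like clusters.

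**Figure D3:**
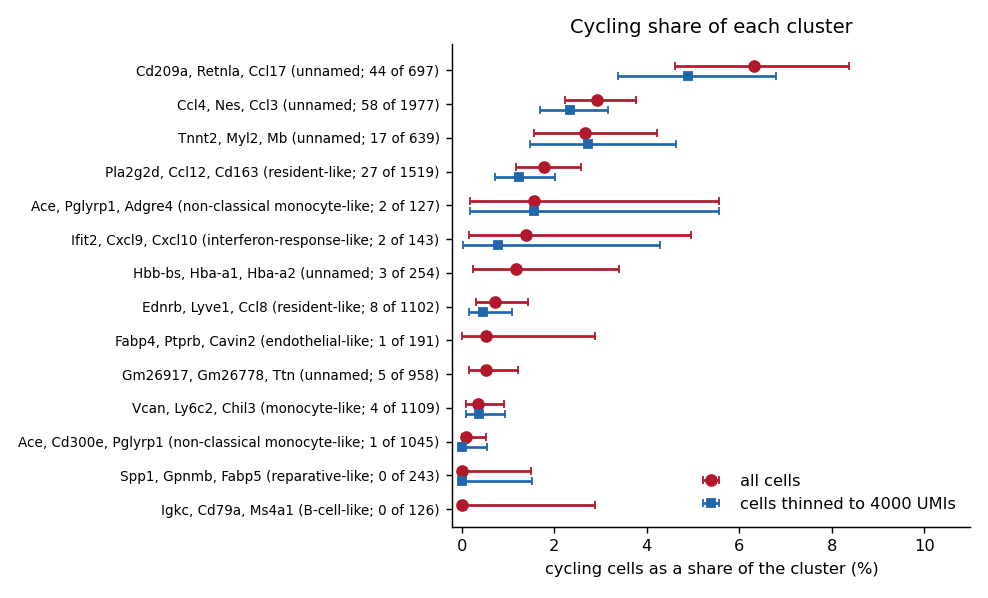
Cycling cells as a share of each cluster with at least 100 cells, over all cells (red) and over cells thinned to 4000 UMIs (blue, where at least 100 remained), with exact 95% binomial intervals. Labels give the leading genes, the name and the number of cycling cells; the Cd209a cluster is highest at 6.31% and the large monocyte clusters lie under 0.4%.

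The boundaries of the Cd209a cluster moved with the clustering. With 10 neighbours, with the identity genes allowed, at resolution 1.0 and without cells over 10% mitochondrial UMIs, its cycling cells divided between a dendritic-like cluster led by Cd209a and Klrd1, with 18 to 22 of them, and a reparative-like cluster led by Spp1, Gpnmb, Fabp5 and Retnla, with 20 to 26. With 50 neighbours all 44, and with the highest doublet scores removed all 39 that remained, lay in a reparative-like cluster led by Spp1, Gpnmb, Fabp5 and Cd209a. Over these 6 settings the reparative-like clusters held 22 to 46 cycling cells. In the first 4 settings the Cd209a-led cluster held 10.5 to 13.6% of cycling cells. Of the 44, Cd209a, a C-type lectin of dendritic cells, was found in 22, Napsa in 38, Itgax (CD11c) in 32, Flt3, the receptor of the dendritic cell growth factor, in 14 and the dendritic factor Zbtb46 in 9. Over all cycling cells, Cd209a stood at 130 against 50.1 CPM (log2 ratio 1.38, interval 1.20 to 1.55) and was found in 8.93% against 2.84% of thinned cells. Of its 301 UMIs in cycling cells, 241 lay in the 44 cells of the Cd209a cluster. Within that cluster it was lower in cycling cells, at 306 against 432 CPM (-0.50, -0.69 to -0.31). With comparison cells weighted to the cluster shares of the cycling cells, its log2 ratio was 0.21. Unweighted, Cd209a was the only 1 of 8 dendritic cell genes past the filter that was at least 2-fold higher. Itgax had a log2 ratio of 0.69, Wdfy4 of 0.61, Klrd1 of 0.90, Naaa of 0.36, Irf8 of -0.26 and Napsa of -0.45. With the weighted comparison these were 0.52, 0.50, -0.21, 0.16, -0.25 and 0.34 in the same order, so that Klrd1 and Napsa changed sign.

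Within clusters, MHC class II genes made up a smaller part of the UMIs of cycling cells than of their neighbours, although the library-wide ratio was near 0. These are ratios of CPM and not of transcripts per cell. Over the library, the 10 MHC class II genes had a mean of 280 UMIs in a cycling cell and 140 in a cell without the 7 genes. In the Nes cluster H2-Aa stood at 3695 CPM in cycling cells and 8456 CPM in cells without the 7 genes (log2 ratio -1.19, interval -1.25 to -1.14). In the Pla2g2d cluster it stood at 970 and 4577 CPM (-2.24, -2.41 to -2.07), and in the Tnnt2 cluster at 3512 and 8974 CPM (-1.35, -1.47 to -1.24). In the Cd209a cluster the values were 6887 and 8152 CPM (-0.24, -0.28 to -0.20), and all 44 cells had H2-Aa. Against cells without the 7 genes of the same cluster and of 4868 to 22916 UMIs, a comparison added after the data were seen, these ratios were -1.17, -2.18, -1.31 and -0.26. H2-Ab1, H2-Eb1 and Cd74, the invariant chain, had log2 ratios of -1.32, -1.24 and -1.17 in the Nes cluster and -2.24, -2.16 and -1.98 in the Pla2g2d cluster. When the comparison cells were weighted to the cluster shares of the cycling cells, also added after the data were seen, H2-Aa had a log2 ratio of -0.73, against -0.10 unweighted.

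Lyve1 was lower in cycling cells within each of the 4 clusters. It stood at 17.5 against 65.0 CPM in the Nes cluster, 413 against 639 CPM in the Pla2g2d cluster, 29.9 against 59.7 CPM in the Tnnt2 cluster and 7.62 against 20.7 CPM in the Cd209a cluster, the last 2 from 5 and 6 UMIs, and the Tnnt2 interval reached 0.25. In the Pla2g2d cluster 18 of 27 cycling cells had Lyve1 and 22 had Cd163 (593 against 963 CPM), while the resident genes Folr2 (590 against 623 CPM), Mrc1 (2566 against 2641 CPM) and Cbr2 (793 against 766 CPM) stood level. With the weighted comparison Lyve1 had a log2 ratio of -1.11, Cd163 of -0.61, Ccr2 of -0.40 and Ly6c2 of -0.46. The unweighted ratios were -1.93, -0.82, -0.27 and -2.12 in the same order, so that the weighting moved Ly6c2 and Lyve1 most. Within the Nes cluster Ly6c2 ran the other way, at 6.74 against 1.60 CPM from 5 UMIs. Ccr2 in the Cd209a cluster was 746 against 1393 CPM (-0.90), with 42 of 44 cells positive.

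**Figure D4:**
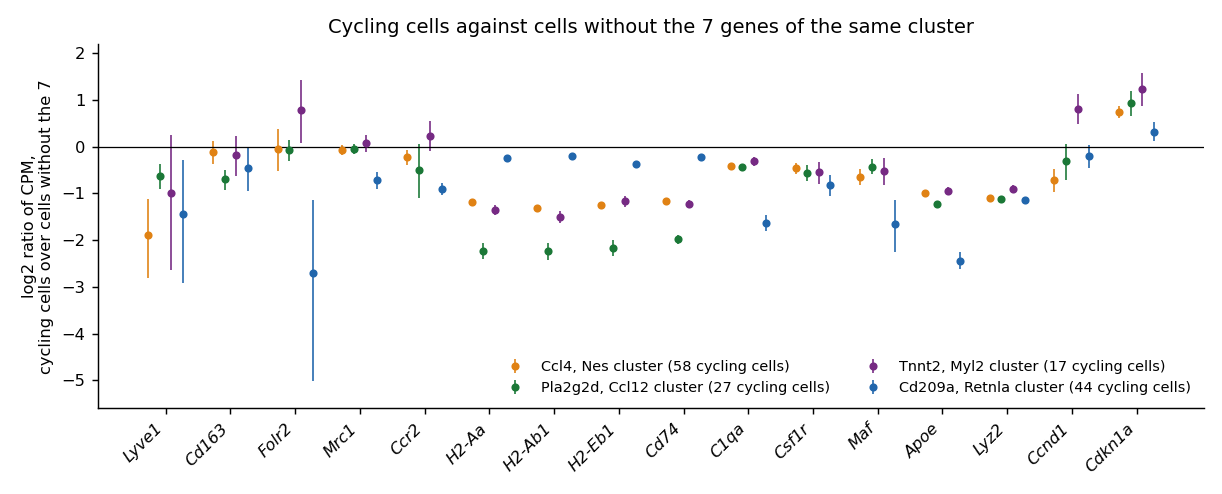
Log2 ratio of CPM of cycling cells over cells without the 7 genes of the same cluster, for 16 genes in the 4 clusters with at least 10 cycling cells, with exact 95% intervals. MHC class II genes (H2-Aa to Cd74) lie under 0 in each cluster and nearest to 0 in the Cd209a cluster; Cdkn1a lies above 0 in each.

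Cdkn1a was higher in cycling cells within all 4 clusters, with log2 ratios of 0.75, 0.93, 1.23 and 0.32 in the Nes, Pla2g2d, Tnnt2 and Cd209a clusters. Ccnd1 was not uniform, at -0.72, -0.31, 0.81 and -0.20, and the intervals of the Pla2g2d and Cd209a clusters included 0. The lipid carrier Apoe was lower in all 4 (-0.99, -1.22, -0.94 and -2.44), as was lysozyme (Lyz2, -1.09, -1.11, -0.91 and -1.13). Maf, a transcription factor of differentiated macrophages that opposes self-renewal, was lower too, with ratios of -0.65, -0.43, -0.52 and -1.66. Clusters were built on these genes among others, so the ratios describe cells that were placed partly by them.

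Across the library, macrophage genes had lower CPM in cycling cells, with few past 2-fold. As UMIs per cell, the 17 pan-macrophage genes had a mean of 237 in cycling cells and 182 in the others. Of 17 pan-macrophage genes, all 17 were lower, with a median log2 ratio of -0.66, and 2 were at least 2-fold lower. These were Apoe (4449 against 11167 CPM, -1.33) and the efferocytosis receptor Mertk (30.8 against 63.3 CPM, -1.04). The complement genes C1qa, C1qb and C1qc had ratios of -0.42, -0.25 and -0.38 and the growth factor receptor Csf1r of -0.66 (680 against 1073 CPM). Of 15 growth factor and cytokine receptors 13 were lower (median -0.60), with the GM-CSF receptor chain Csf2ra at -0.09 and the granulocyte receptor Csf3r at -1.89. Of 19 macrophage transcription factors 15 were lower (median -0.38). Maf (440 against 764 CPM) had a ratio of -0.80, Klf2, a quiescence factor, of -1.12, Klf4 of -0.84, Spi1, the myeloid master factor, of -0.31 and Id2, an inhibitor of helix-loop-helix factors, of 0.93.

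Resident macrophage genes beyond Lyve1 and Cd163 followed unevenly. Of 19, 18 were lower, with a median of -0.82, and 4 were at least 2-fold lower: Timd4, a receptor for phosphatidylserine (16.0 against 57.8 CPM, -1.85), Ninj1 (-1.63), Folr2, a folate receptor (149 against 360 CPM, -1.27), and Selenop, a selenium carrier (985 against 2326 CPM, -1.24). The mannose receptor Mrc1 had -0.27 and Cbr2 -0.32. Retnla was the only 1 above 0, at 0.28, with the same share of thinned cells in both groups (9.52% and 9.5%). Of its 2320 UMIs in cycling cells, 2039 lay in the 44 cells of the Cd209a cluster, within which its ratio was -1.21. With the weighted comparison Retnla had -0.78, Timd4 -1.15, Ninj1 -0.87, Folr2 -0.58, Selenop -1.13 and Mrc1 -0.28. Cbr2 (0.03), Vsig4 (0.43) and Ltc4s (0.06) were among the genes then above 0, so the exceptions changed with the cluster shares. MHC class II genes centred on 0 (median -0.04 over 10), with H2-Ab1 at -0.04, Cd74 at -0.06, their transactivator Ciita at -0.34 and the protease Ctss at -1.04.

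Apart from the granulocyte list (median -3.46), monocyte genes had the lowest medians among the myeloid lists. Of 14 classical monocyte genes 13 were lower (median -1.64) and 7 of 12 past the filter at least 2-fold lower, among them Chil3 (9.97 against 185 CPM, -4.21), Vcan (4.33 against 52.1 CPM, -3.59), Plac8 (89.7 against 716 CPM, -3.00) and Hp (13.9 against 92.5 CPM, -2.74). S100a4 was above 0, at 0.38. Of 9 non-classical genes 7 were at least 2-fold lower (median -2.15), such as Ace (13.4 against 97.9 CPM, -2.87) and Treml4 (6.50 against 35.6 CPM, -2.45), while Spn was higher (136 against 91.6 CPM, 0.57). With the weighted comparison Plac8 had a ratio of -1.01, Ace of -0.51, Treml4 of -0.11 and Spn of 1.63, and the list medians were -0.40 (classical) and -0.21 (non-classical), above those of MHC class II (-0.62) and pan-macrophage genes (-0.60). Outside the cycle lists and above a mean of 50 CPM, the 10 lowest genes were S100a9 (-6.13), Chil3, Mgst1, Plac8, Ace, Hp, Slfn5, Ifitm6, Itgal and Gsr. S100a9 was found in similar shares of thinned cells, 1.19% of cycling cells and 0.933% of the others, so its low ratio lay in the counts of few cells. Against comparison cells of matched UMIs it was -2.83. Reparative and lipid-associated genes (median -0.98 over 12) ran from Gpnmb at -4.24, from 6 UMIs in 1 cycling cell, to Gdf15 at 0.85. Spp1 had -1.14, although it was found in 11.3% of thinned cycling cells and 3.08% of the others. With the weighted comparison the list median was -0.10. Gpnmb (2.6 against 0.919 CPM) and Spp1 (57.6 against 19 CPM) were then higher in cycling cells. Unweighted, interferon-response genes were all 10 below 0 (median -1.04). Early response genes, which tissue digestion can raise, had a median of -0.27, with Fos at -0.07 and Jun at -0.55.

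**Figure D5:**
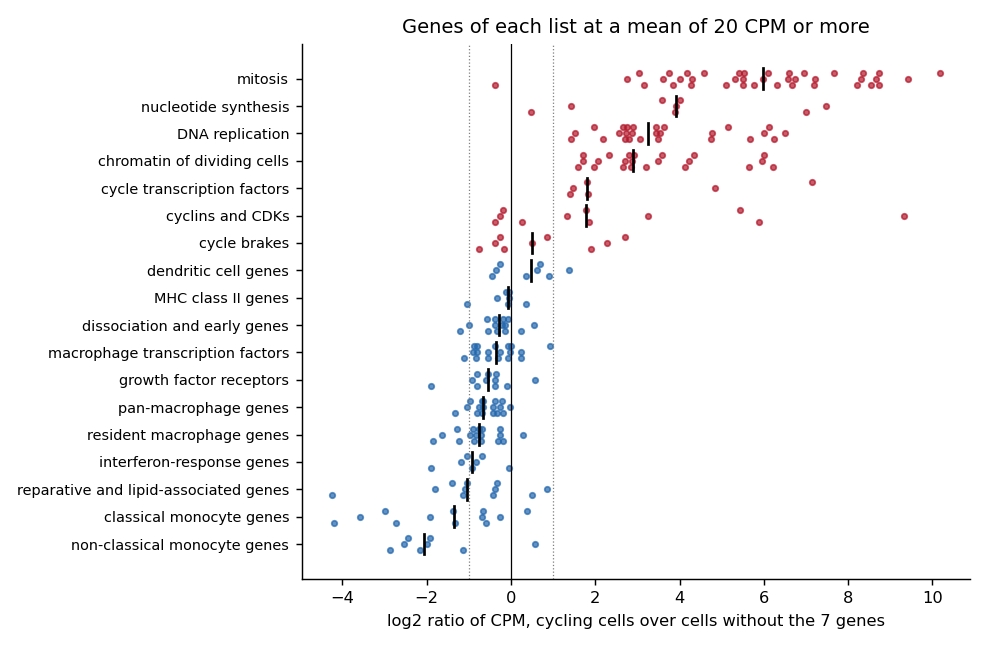
Log2 ratio of CPM of cycling cells over cells without the 7 genes for each listed gene with a mean of at least 20 CPM (points) and the median of these genes (bars), with dotted lines at 2-fold. Cycle lists (red) lie above 0 apart from Ccnd2, Ccnd3, Cdk6, Pttg1 and 4 brakes, and the monocyte lists have the lowest medians shown.

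By the same rule, cycling cells made up 2.13%, 2.83% and 3.32% of infarct libraries 1, 2 and 3 (mean 2.76 ± 0.598%, SD, n = 3), against 1.68% at baseline. After thinning to 4000 UMIs the shares ran from 1.70% to 2.75% in the infarct libraries (2.22 ± 0.525%, SD, n = 3), and the baseline share was 1.51% (1.25 to 1.81%). Each infarct value lay above the baseline value. The interval of infarct library 1 (1.86 to 2.42%, and 1.44 to 1.99% after thinning) overlapped that of baseline, and those of libraries 2 and 3 lay above it. With 1 baseline library no test was made, and these intervals cover counting error only, not differences between hearts. Infarct cycling cells had 2.92 to 71.1 CPM of Lyve1 and 3.31 to 35.0 CPM of Cd163, all below the 115 and 251 CPM of baseline cycling cells. In the infarct cells without the 7 genes these stood at 12.7 ± 8.92 and 13.2 ± 5.78 CPM. H2-Aa stood at 3364, 2042 and 2325 CPM in infarct cycling cells, also below baseline, and Ccr2 at 507, 350 and 393 CPM, the first of them level with the 501 CPM at baseline. Against infarct cells without the 7 genes, H2-Aa had log2 ratios of -0.37, -0.88 and -0.59 and Ccr2 of -0.66, -0.54 and -0.41. Lyve1 had 0.53, -0.23 and 1.75 and Cd163 -1.63, -0.99 and 1.03, so that neither had the same sign in all 3 infarct libraries, and Ly6c2 had -0.37, -0.74 and -2.47. The cycle programme was alike: the mitosis list had medians of 5.96, 5.65 and 5.60 in the infarct libraries and 6.04 at baseline, and the replication list 3.31, 3.09 and 2.96 and 3.46. Cd209a, at 1.38 over all baseline cycling cells and -0.50 within the Cd209a cluster, had -0.67, -1.33 and 0.58 over all cycling cells of the infarct libraries.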

How the data were processed

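Droplet single-cell RNA-seq was analysed in 1 baseline library (3 hearts pooled) and 3 infarct libraries. The authors deposited unnormalized UMI counts of every gene for each barcode, produced by Cell Ranger with the mm10 reference. The matrix header gives version 3.1.0 and the submitters' processing notes 3.0.1. All later steps were made here with Python 3.11.15, scanpy 1.11.5, scikit-learn 1.9.0, scipy 1.17.1, leidenalg 0.10.2 and matplotlib 3.10.9.

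The cycling cells and the gene lists were chosen with earlier results of these data known. Barcodes between 500 and 40000 UMIs with more than 200 genes entered, 10238 of 10314 baseline barcodes (10117 to 10782 per infarct library). The deposited tables held 71093963 UMIs at baseline and 88157753 to 97944428 in the infarct libraries. Counts were summed per group and given as CPM without mitochondrial genes, with exact 95% Poisson and binomial intervals. A group at 0 was set to 3 counts, and no ratio was given where this turned its direction. For classes, cells without the 7 genes were clustered from 2000 variable genes without the rule, identity, cycle, mitochondrial and sex-linked genes, with 20 components, 25 neighbours and Leiden resolution 0.6. A cluster was called X-like with at least 3 markers of a class over a log2 fold of 1 in 10% of its cells, 2 of them among its 10 leading genes, and no class with more. Doublets were scored with Scrublet, whose automatic threshold marked 1.68% of baseline cells. They were kept, and the 839 highest scores (8 per 1000 for every 1000 cells) were removed as an alternative.

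Genes named outside the lists were the 10 highest and 10 lowest ratios at a mean of at least 50 CPM, leaving out rule, cycle, mitochondrial, ribosomal-protein and sex-linked genes. List genes were named at a mean of at least 20 CPM. The markers of other cell types and the genes of the 4 clusters (Cd209a, Klrd1, Flt3, Zbtb46, Napsa and Itgax among them) were named as a check of cell identity. Flt3, Zbtb46, Dcn, Col1a1, Col1a2, Col3a1, Pdgfra, Tcf21 and the lymphocyte genes lay under 20 CPM. No test was possible with 1 baseline library. Ratios and thinning were tested on simulated data. Alternatives were 3 or 5 of the 7 genes, 1000 UMIs, 10% mitochondrial UMIs, doublets removed, thinning, mean CPM per cell, other comparison cells, weighting and matching the comparison cells by cluster and UMIs (chosen after seeing the data), TMM scaling (edgeR 4.0.16, R 4.3.3), other filters and other clusterings. Some genes of the lists are not reported here.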

Additional observations from a re-analysis of the deposited data

Results flagged for a closer look

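The median log2 ratio of 12 genes that restrain the cycle was 0.19 in baseline cycling cells and -0.11, -0.16 and -0.14 in the 3 infarct libraries, against cells without the 7 genes of the same library. At baseline 6 of the 12 lay above 0 and 6 below, and the median was 0.97 with cells thinned to 2000 UMIs and 0.16 to 0.37 under the other alternatives. It was picked out because every infarct library lay on the other side of 0 from baseline, and the difference was not tested. Cdkn1a had a log2 ratio of 0.85 at baseline and -0.36, -0.05 and -0.31 in the infarct libraries, and Rbl2, a pocket protein, had 0.49 and -0.07, -0.21 and -0.21. Cdkn2c (2.70 at baseline, 2.62 to 3.41 in infarct libraries) and Rbl1 (2.27, and 1.87 to 2.19) were above 0 in all 4 libraries.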

How the results depend on the processing

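Of 137 main values recomputed under the alternatives, 97 moved by less than their 95% counting interval (or, for counts of genes, by less than 1.5 times), 39 moved by more and 1 changed sign. Lyve1, Cd163, Ly6c2 and H2-Aa had negative log2 ratios in every alternative, and Ccr2 in all but 1. With cells thinned to 2000 UMIs, which gives each cell equal weight, Ccr2 had 0.09, Lyve1 -1.41, Cd163 -0.51 and H2-Aa -0.25, and 323 genes were at least 2-fold lower. The mean of each cell's CPM gave -0.07 for Ccr2, -1.67 for Lyve1, -0.62 for Cd163 and -0.15 for H2-Aa. With 3 of the 7 genes required, the share was 2.11%, Lyve1 -1.34, Ccr2 -0.18 and H2-Aa -0.15. With 5 required, these were 1.27%, -2.64, -0.13 and -0.05. Without the highest doublet scores, Ccr2 had -0.36 and Ly6c2 -2.71, and the shares were 11.9% resident-like, 0.662% monocyte-like and 45.7% in clusters led by Nes. Comparison cells of matched UMIs gave Ccr2 -0.42. Comparison cells weighted to the clusters of the cycling cells (chosen after seeing the data) gave Lyve1 -1.11, Cd163 -0.61, Ccr2 -0.40, Ly6c2 -0.46 and H2-Aa -0.73, and 76 genes at least 2-fold lower. A filter at 50 CPM left 231 higher and 83 lower genes, and no filter 1917 and 1015, as more or fewer genes were counted. Clusters led by Cd209a held 13.6% of cycling cells with at most 10% mitochondrial UMIs, 10.5% with 10 neighbours, and 12.2% with identity genes allowed or at resolution 1.0. In the last 2 settings 14.5% were resident-like, and with 50 neighbours 45.9% lay in clusters led by Nes. Apart from the filters, the cause was not tested. Of 512 values of single genes and lists, 450 moved by less than their interval and 62 by more. Among the 62 was the median of the dendritic cell list, which changed sign from 0.51 to -0.07 with cells thinned to 2000 UMIs. No paired analysis was possible because baseline is 1 library and no result comes from a test. The 172 cycling cells limit the precision of genes of few UMIs, such as the 77 of Ly6c2.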
